A study of Homo sapiens with 4 samples.

Results

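CSF2 encodes GM-CSF, and its probe gave the largest rise among the well-measured genes of PC3 cells depleted of ALKBH3. It is described here together with the other colony stimulating factors, CSF1 and CSF3, and with the receptor genes CSF2RA, CSF2RB, CSF1R and CSF3R. The 7 genes were found through the RefSeq accession given for each probe and carry 11 of the 34127 probes of the array. CSF2 was chosen by its change in these data, so its response to ALKBH3 shRNA is described with no test, whereas the other members were chosen by family. PC3 is a human prostate cancer cell line. The cells were infected for 48 h with a lentivirus that carried an shRNA against ALKBH3, a demethylase that repairs alkylated DNA, or against GFP as control, and were then under puromycin for 48 h or 96 h. Both groups therefore carry a lentivirus and were selected, and the ALKBH3 shRNA used is not named in the labels. There is 1 single-colour array for each of the 4 combinations. The arrays of 48 h and 96 h thus serve as replicates of a shRNA, and the p-values measure only the spread between these samples.

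Colony stimulating factors are secreted proteins that drive the survival, division and maturation of myeloid blood cells. GM-CSF acts through a receptor made of an alpha chain (CSF2RA) that binds it and a common beta chain (CSF2RB) shared with the IL-3 and IL-5 receptors, and signals through JAK2 and STAT5. CSF1, also called M-CSF, acts on macrophages through the tyrosine kinase CSF1R, and CSF3, also called G-CSF, acts on neutrophils through CSF3R. CSF2 is silent in most resting cells and is switched on in activated lymphocytes, macrophages, fibroblasts and epithelial cells. Its control lies in part in a short promoter and in the decay of its mRNA.

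The stretch of 250 bases that ends just before the CSF2 start site is shown because the gene moved most. Some of its known inducible elements lie there, and sequence outside this window was not searched. It covers chr5:132073539-132073788 on the plus strand (RefSeq, GRCh38.p14). Capitals mark the motif matches on either strand.
CSF2 promoter: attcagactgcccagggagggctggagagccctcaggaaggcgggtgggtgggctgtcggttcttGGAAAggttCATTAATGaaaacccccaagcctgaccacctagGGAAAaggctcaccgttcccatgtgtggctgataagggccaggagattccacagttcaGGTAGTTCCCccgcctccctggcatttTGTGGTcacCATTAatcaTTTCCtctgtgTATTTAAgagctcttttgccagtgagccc
Positions are counted from the start site, with -1 for the base just before it. The kB letters GGGNNNNNCC matched on the minus strand from -85 to -76, and the RUNX letters TGTGGT matched from -58 to -53. The NFAT core GGAAA began at -185 and -143 on the plus strand and lay from -40 to -36 on the minus strand. CATTA began at -176 and -49, and a minus strand copy from -173 to -169 overlapped the first of these. The TATA-like letters TATTTAA lay from -29 to -23, and neither TATAAA nor the AP-1 letters TGANTCA occurred in the window. Several of these motifs are common in windows of this length. Of 34788 RefSeq promoters, 54.4% held the kB letters, 55.7% GGAAA, 21.2% CATTA, 11% TGTGGT, 10.8% TATAAA, 6.59% TGANTCA and 4.19% TATTTAA. A match is a description of the letters and not a measured site.

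The targeted gene was lower at both times. Signals below are log2 intensities relative to the 75th percentile of the array, so 0 stands for a probe at that percentile. At 48 h the ALKBH3 signal was -0.74 in control and -2.48 in depleted cells, and at 96 h it was -0.89 and -2.41. Its mean log2 fold change was -1.63, and that of its second probe was -2.05. The arrays of 48 h shared 1 slide and those of 96 h another, so time and slide cannot be told apart. The PC3 and epithelial markers KRT8, KRT18, KRT19, EPCAM, CDH1, VIM and AKR1C3 were well above background on all 4 arrays, and KLK3, which PC3 cells make little of, on none. Of 15 leukocyte markers on the array, 9 to 11 were well above background on an array, PTPRC (CD45) among them on all 4. MPO, ITGAX, FCGR3A and S100A12 were well above background on no array. The summed signal of the leukocyte markers was 97.5% of the 75th percentile (control) and 110% (depleted) at 48 h, and 80.7% and 82.6% at 96 h. Most of each sum came from CD68, with log2 signals of -0.71 and -0.47 at 48 h, and -1.21 and -1.22 at 96 h. The part of the leukocyte markers in the results below was not tested.

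CSF2 was higher with ALKBH3 shRNA at both times. The intensity of its probe (A_23_P133408, accession NM_000758) was 138 (control) and 710 (depleted) at 48 h, and 99.9 and 756 at 96 h, with software errors of 14.7, 71.2, 12.1 and 75.8. The log2 signals were -3.96 and -1.69 at 48 h and -4.55 and -1.66 at 96 h. Both ALKBH3 shRNA arrays lay above both control arrays, and the probe was well above background on all 4. CSF2 was thus 4.84-fold higher at 48 h (log2 2.27) and 7.39-fold higher at 96 h (log2 2.89). The mean log2 fold change was 2.58 ± 0.43 (SD, n = 2 time points), or 5.98-fold. RNA from a whole culture cannot tell more RNA per cell from more cells that make it.

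The larger fold of CSF2 at 96 h came with a lower control signal. From 48 h to 96 h the log2 signal of CSF2 changed by -0.59 with control shRNA and by 0.02 with ALKBH3 shRNA. The log2 fold changes at the 2 times differed by 0.61, and with 1 array in each cell of the design this difference could not be tested. CSF2 has 1 spot on each array. Of 999 probes with several spots, the 35 to 82 that lay within 0.5 log2 units of the CSF2 signal on an array had a median SD between spots of 0.08 to 0.15 log2 units.

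Among 14021 genes that were well above background on all 4 arrays, CSF2 ranked 1 by mean log2 fold change, 12 at 48 h and 1 at 96 h. The gene just below it in the mean was HSH2D, an adaptor of blood cells, at 2.54 (3.02 at 48 h and 2.06 at 96 h). Over all 14556 genes tested CSF2 ranked 5, since genes that were dim on some arrays had larger fitted changes. These ranks are what chose CSF2 and are no finding.

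**Figure D1:**
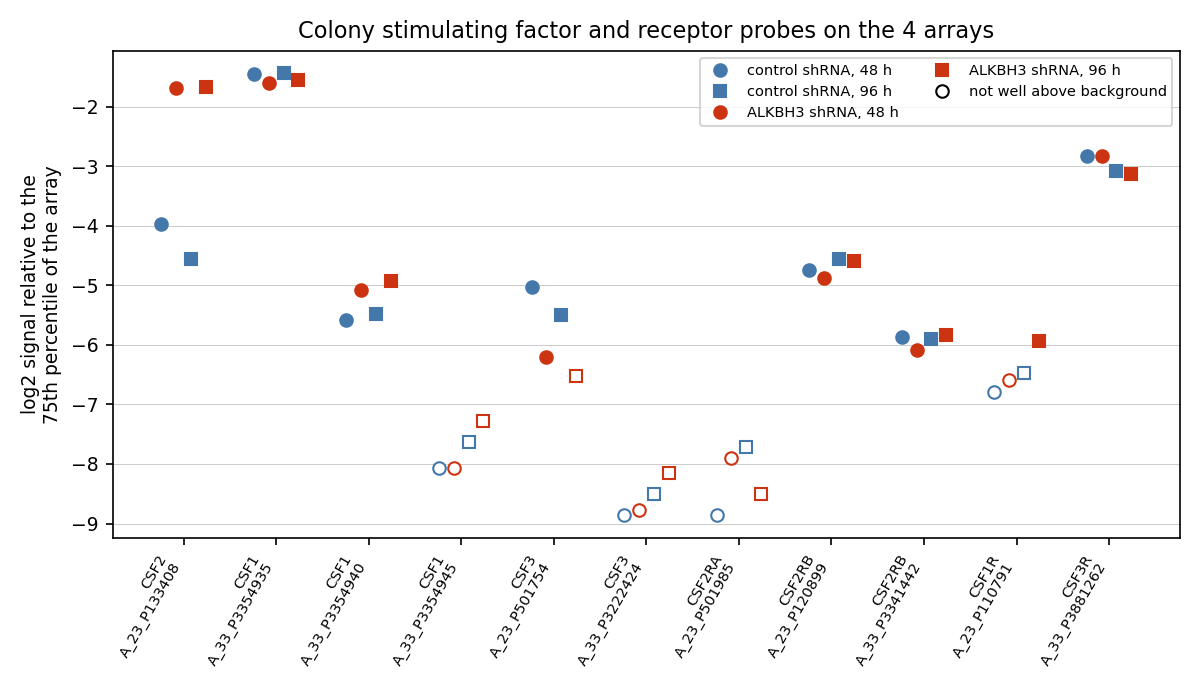
Log2 signal of the 11 probes, relative to the 75th percentile of the array, on each of the 4 arrays. Blue is control and red ALKBH3 shRNA, circles are 48 h and squares 96 h, and hollow symbols were not well above background. CSF2 is the probe in which the red symbols lie furthest above the blue ones, CSF3 A_23_P501754 has the reverse order, and signals are not comparable between probes.

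CSF1 gave opposite directions on its probes. The probe with the highest signal (A_33_P3354935, NM_172212) had intensities of 786 (control) and 756 (depleted) at 48 h, and of 869 and 820 at 96 h. Relative to the 75th percentile of each array, the log2 signals were -1.45 and -1.60 at 48 h, and -1.43 and -1.55 at 96 h. On this scale, though not in the intensities, both ALKBH3 shRNA arrays lay below both controls, with differences of -0.15 at 48 h and -0.12 at 96 h. The mean was -0.13 ± 0.11 (SE, limma adjusted p = 0.881). A dimmer probe (A_33_P3354940, NM_000757) had intensities of 45.1 and 68.0 at 48 h, and 52.1 and 78.5 at 96 h. On that probe both ALKBH3 shRNA arrays lay above both controls. Its log2 fold changes were 0.50 and 0.56, and the mean of 0.53 ± 0.13 (SE) was under the 2-fold cutoff, with an adjusted p of 0.444 over all probes by limma. The mean over both probes was 0.20, with the opposite sign to the brighter probe. The probe for the variant NM_172210 was not well above background on any array, with intensities of 8.04 to 15.4. The accessions name different transcript variants of CSF1, and no direction is given for the gene.

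CSF3 gave lower signals in the ALKBH3-depleted cells, near the limit of detection. Its measured probe (A_23_P501754, NM_000759) had intensities of 65.7 (control) and 31.1 (depleted) at 48 h, and of 51.8 and 26.1 at 96 h. Both ALKBH3 shRNA arrays lay below both controls, and the 96 h ALKBH3 shRNA array was not well above background. The log2 fold changes were -1.17 at 48 h and -1.02 at 96 h. The mean was -1.09 ± 0.22 (SE), which is 0.469 of the control level. The unadjusted p of 0.0054 by limma lies past the cutoffs of 2-fold and unadjusted p below 0.05. CSF3 entered the test through the control arrays, where it is high, and the 96 h ALKBH3 shRNA array gives only an upper limit, so these values are a description. With the filter on all 4 arrays it was not tested. CSF1, CSF2RB and CSF3R were not past the cutoffs, and 0.234% of the 14556 genes tested were past them in the direction of CSF3. For the rise of CSF2, which chose it, the same share among all genes was 1.04%.

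The values of CSF3 varied with the processing. The adjusted p from limma was 0.354. With the time points blocked it was 0.0264, at which 1.5% of all genes were lower and 2.96% higher at an adjusted p below 0.05. CSF3 entered the test through the control arrays, where it is high, so its p-values are a description too. Without the block 0 genes passed an adjusted p of 0.05, 1213 had an unadjusted p below 0.05 by limma and 1057 by the methods' t-test. The log2 fold change was -0.86 without the control array of 48 h and -0.93 without the ALKBH3 shRNA array of 96 h, both under the 2-fold cutoff. It was -0.39 after normexp background correction (limma p = 0.0615) and -0.64 in the values the authors normalized (limma p = 0.0683), and the methods' t-test gave an unadjusted p of 0.0605. The second CSF3 probe (A_33_P3222424) was not well above background on any array, with intensities of 4.66 to 8.42.

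At single time points, with no test, CSF2 and CSF3 were the tested members that changed at least 2-fold. At 48 h 1.88% of genes were at least 2-fold higher and 0.295% lower, at 96 h 1.46% and 0.426%, and at both times 0.694% and 0.144%.

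**Figure D2:**
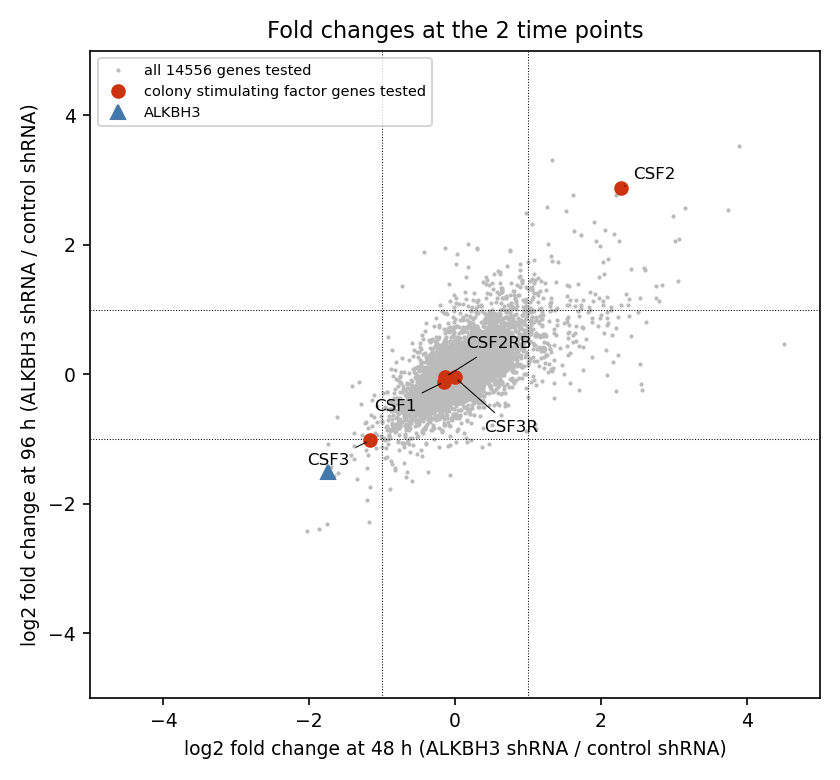
Log2 fold change of ALKBH3 shRNA against control at 48 h (horizontal) and 96 h (vertical) for all 14556 genes tested (grey), the 5 members tested (red) and ALKBH3 (blue triangle). Dotted lines mark 2-fold. CSF2 lies at 2.27 and 2.89, CSF3 at -1.17 and -1.02, and CSF1, CSF2RB and CSF3R lie near the origin.

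The chains of the GM-CSF receptor either were not measured or did not pass the cutoffs. CSF2RA, the binding chain, was not well above background on any array, with intensities of 4.61 and 9.60 at 48 h and 11.2 and 6.56 at 96 h (control first), so it was not tested. CSF2RB, the signalling chain, was well above background on all 4 arrays by both of its probes. The brighter one (A_23_P120899) had intensities of 80.3 (control) and 77.7 (depleted) at 48 h, and of 99.9 and 99.2 at 96 h. Its mean log2 fold change was -0.09 ± 0.16 (SE, limma adjusted p = 0.963). The other CSF2RB probe (A_33_P3341442) had intensities of 37.0 and 33.8 at 48 h, and 39.4 and 41.9 at 96 h. Its log2 fold changes of -0.22 and 0.05 had opposite signs.

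The receptor of G-CSF was measured on all arrays. CSF3R (A_33_P3881262) had intensities of 305 (control) and 323 (depleted) at 48 h, and of 277 and 274 at 96 h. The mean log2 fold change was -0.03 ± 0.17 (SE, limma adjusted p = 0.990). Neither CSF2RB nor CSF3R passed the cutoffs, which does not show that they were unaltered.

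CSF1R, the receptor of M-CSF, is spotted 10 times on each array, of which 9 spots were kept on the control array of 96 h. The mean intensity was 20.2 (control) and 24.5 (depleted) at 48 h, and 26.9 and 39.9 at 96 h. Spots well above background numbered 2 and 4 at 48 h, and 0 and 6 at 96 h. The probe counted as measured only on the ALKBH3 shRNA array of 96 h. The log2 signals were -6.80 ± 0.45 and -6.59 ± 0.42 at 48 h, and -6.47 ± 0.28 and -5.93 ± 0.28 at 96 h (SD between spots). Since both controls and the 48 h ALKBH3 shRNA array were not well above background, no fold is given and the gene was not tested.

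**Figure D3:**
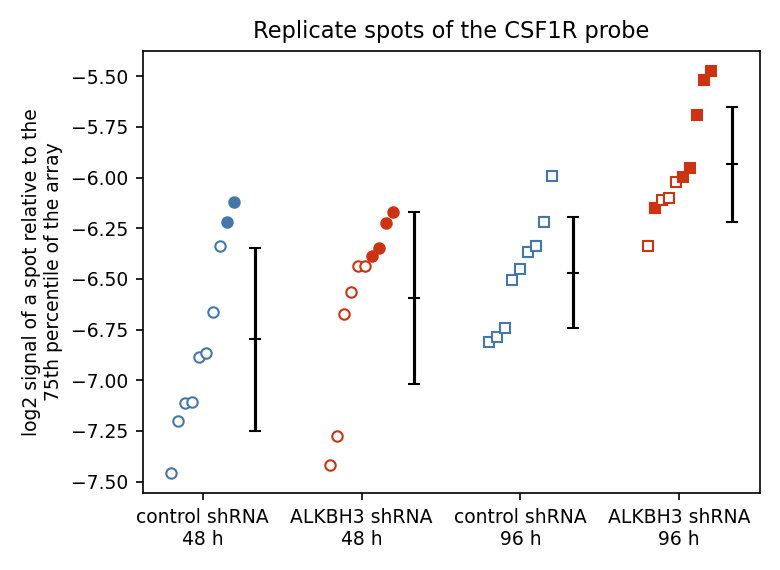
Log2 signal of each kept CSF1R spot, relative to the 75th percentile of the array. Blue is control and red ALKBH3 shRNA, circles are 48 h and squares 96 h, hollow symbols were not well above background, and the black bars are the mean ± SD over spots of 1 array. The spots of the 96 h ALKBH3 shRNA array have the highest mean, -5.93, and 6 of its 10 spots are filled.

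Time point was not used to choose the genes. Between 96 h and 48 h, 0 of the 5 tested members passed the cutoffs, against 0.124% of all genes higher and 0.66% lower. The log2 change was -0.28 for CSF2 (limma adjusted p = 0.924), where the SE of 1.27 holds the difference between the shRNAs. It was -0.39 for CSF3 (limma adjusted p = 0.729) and 0.04 for CSF1 (limma adjusted p = 0.879). For the receptors it was 0.24 for CSF2RB (limma adjusted p = 0.303) and -0.28 for CSF3R (limma adjusted p = 0.226). With shRNA as a block these 5 adjusted p-values lay above 0.05, the lowest being 0.0545 for CSF3, whereas 5.84% of all genes were higher and 6.94% lower at 96 h.

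The genes nearest to CSF2 in profile over the 4 arrays were COXFA4L3, LTB, SLAMF7, SPINK2 and ESPNL. They were picked for likeness to CSF2, itself chosen by its rise, so a shared rise follows from the choice and is no finding. Likeness was the Euclidean distance between log2 signals after the mean of each gene was removed, among the 14021 genes well above background on all arrays, and it describes 4 arrays only. The distances were 0.516 for COXFA4L3, 0.635 for LTB, 0.690 for SLAMF7, 0.808 for SPINK2 and 0.958 for ESPNL. COXFA4L3, a small mitochondrial protein, was higher by log2 2.18 at 48 h and 2.17 at 96 h. LTB, a membrane cytokine of the tumour necrosis factor family, was higher by 1.93 and 2.06. SLAMF7, a cell surface receptor of immune cells, was higher by 2.25 and 2.06. SPINK2, an inhibitor of serine proteases, was higher by 2.10 and 1.78, and ESPNL by 2.59 and 1.65. In these 5 genes the ALKBH3 shRNA signal was lower at 96 h than at 48 h, by 0.15 for LTB to 1.08 for ESPNL, whereas that of CSF2 changed by 0.02.

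**Figure D4:**
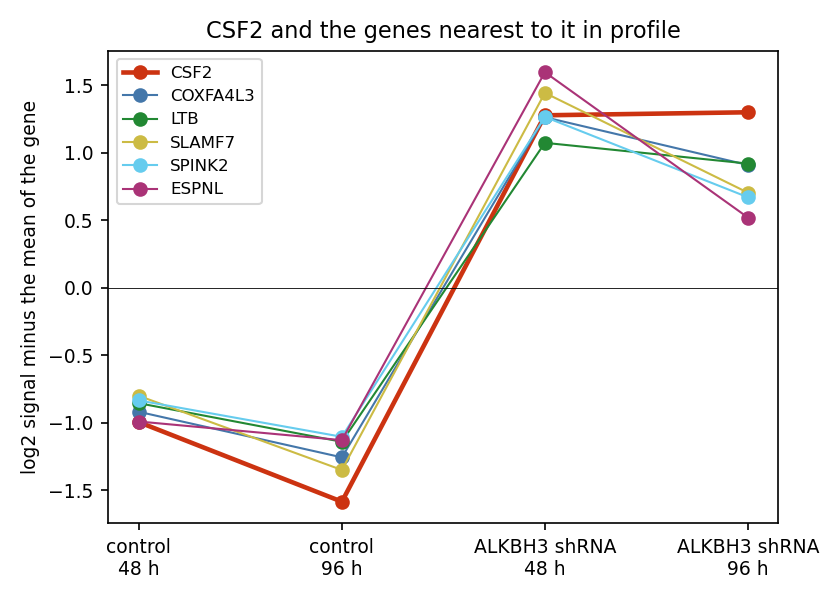
Log2 signal minus the mean of the gene on the 4 arrays for CSF2 (thick red line) and the 5 genes nearest to it. Lines join the arrays only to guide the eye. In all 6 genes both ALKBH3 shRNA arrays lie above both controls, which follows from the choice of genes by likeness to CSF2. CSF2 alone of the 6 does not decline between the ALKBH3 shRNA arrays of 48 h and 96 h (1.28 and 1.30).

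Beyond the colony stimulating factors, 9 of 16 other growth factors and receptors of blood cells on the array were tested. Values given for list genes are mean log2 fold changes. None passed the cutoffs in either direction, against 1.04% of all genes higher and 0.234% lower. With so few genes in a list, 0 calls does not set it apart from all genes. The median log2 fold change of the list was -0.09, against -0.0030 over all genes. The values farthest from 0 were 0.68 for FLT3LG, the ligand of FLT3, and -0.46 for EPOR, the erythropoietin receptor. Without the ALKBH3 shRNA array of 96 h, FLT3LG was 1.08 and passed the cutoffs. IL3 and IL5, whose receptors share CSF2RB, and the receptor chain IL3RA were well above background on no array.

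Of 26 genes for the carriers of the receptor signal, 22 were tested, with a median of -0.06. Of these, 0 passed the cutoffs, against 1.04% of all genes higher and 0.234% lower. INPP5D, a lipid phosphatase of blood cells, had a value of 0.64, and 0.24 to 0.65 under the other settings. It was measured on 3 arrays and passed the filter through the arrays of a single shRNA, so its value is a description. The kinase JAK2, which is bound to the beta chain, was tested, with a value of 0.04. STAT5A, STAT5B and STAT3, named here after their values were seen, were well above background on no array. The log2 signal of STAT5A was -8.47 (control) and -8.46 (depleted) at 48 h, and -8.06 and -8.12 at 96 h. The single probe of STAT5B lay between -8.85 and -7.46, and both STAT3 probes lay between -8.76 and -7.48. The arrays thus held no measured level of the STAT genes through which GM-CSF and G-CSF mainly signal.

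Among 14 tested genes known as targets of this signalling, 0 passed the cutoffs and the median was 0.14. Of all genes, 1.04% were past the cutoffs and higher and 0.234% lower, and these shares also stand beside the lists that follow. CISH, an inhibitor of cytokine signalling, had a value of 0.63 and BCL6, a repressor, -0.62. With time point as a block, BCL6 was lower at a limma adjusted p of 0.0439, where 1.5% of all genes were lower at a value below 0.05. Transcription factors that act on the CSF2 promoter gave 0 of 21 past the cutoffs and a median of -0.05, the farthest being NFATC1 at 0.44 and FOSB at -0.44. Factors that bind or decay AU-rich mRNA such as that of CSF2 gave 0 of 15 and a median of 0.04, with ZFP36L1 at 0.24 and ZC3H12A at 0.23.

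Cytokines of inflamed epithelium were the list with calls. Of 14 tested, 3 were past the cutoffs and higher (CCL20, IL23A and IL24) and 1 was lower (IL1B), against 1.04% and 0.234% of all genes. CCL20, measured on 2 arrays, and IL24, on 3, entered the test through the ALKBH3 shRNA arrays, where they are high. With the filter on all 4 arrays 1 cytokine was higher, IL23A. The median log2 fold change was 0.68. It was 0.91 without the control array of 48 h, 0.84 without the ALKBH3 shRNA array of 96 h, 0.45 without that of 48 h and 0.38 without the control of 96 h, and 0.40 with normexp. CCL20, a chemokine, had log2 signals of -8.22 (control) and -5.15 (depleted) at 48 h, and of -8.58 and -6.50 at 96 h. It was not well above background in either control, so its fold is uncertain. With each control raised to the lowest signal well above background on its array (-6.85 and -6.50), CCL20 was 1.81-fold higher. This is not a strict minimum, since the log2 change was 0.59 with normexp. The limma adjusted p of the fit was 0.348. IL23A, a subunit of IL-23, had signals of -1.25 and -0.24 at 48 h, and -1.40 and 0.33 at 96 h, and a mean change of 1.37 ± 0.23 (SE, limma adjusted p = 0.348). IL24, a member of the IL-10 family, differed by 1.18 (limma adjusted p = 0.557), and it was not well above background on the control array of 96 h. IL1B, a driver of inflammation, had signals of 1.58 and 0.19 at 48 h, and 0.72 and -0.38 at 96 h, and a mean change of -1.25 ± 0.36 (SE, limma adjusted p = 0.495). In these values CSF3 and IL1B were lower and CSF2, CCL20 and IL23A higher, which is a description. CSF2 was chosen by its rise, and CSF3 and CCL20 entered the test through the arrays where they are high. With time point as a block 7 cytokines were higher and 1 was lower at a limma adjusted p below 0.05, against 2.96% and 1.5% of all genes. The 7 include CCL20 and IL24, which entered the test through the arrays where they are high, so this count is a description. Leaving out 1 array gave 2 to 6 cytokines higher and 0 to 1 lower. IL24 lost the cutoffs without the ALKBH3 shRNA array of 48 h (0.81) or the control of 96 h (0.76), and IL1B without the control of 48 h (-0.82) or the ALKBH3 shRNA array of 96 h (-0.96). The count of cytokines higher was 6 without the control array of 48 h and 5 without the ALKBH3 shRNA array of 96 h.

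**Figure D5:**
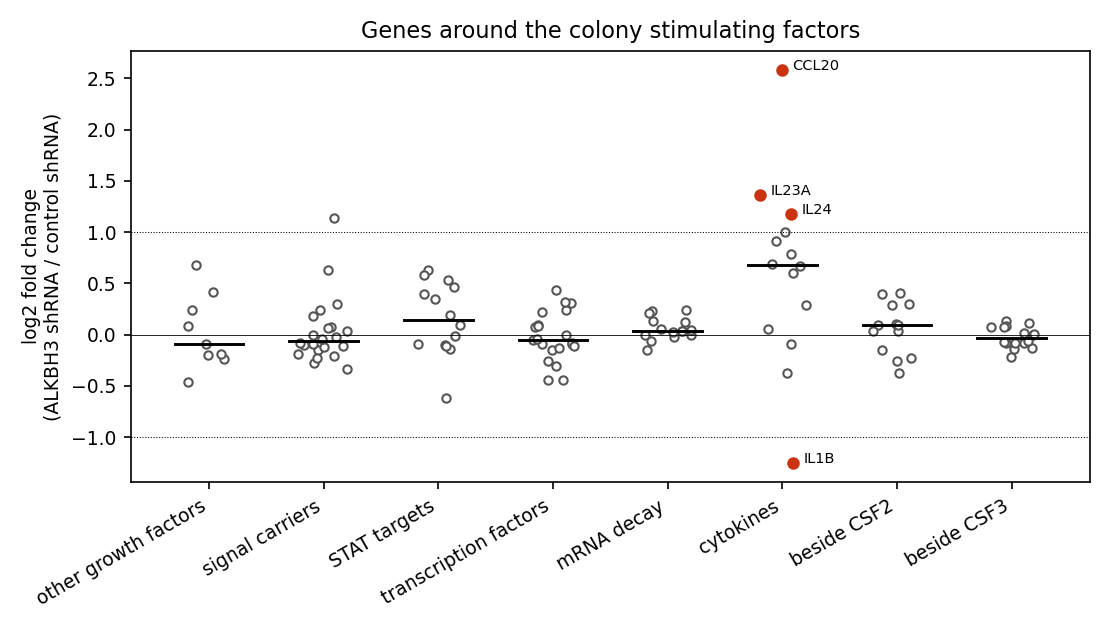
Mean log2 fold change of ALKBH3 shRNA against control for each tested gene of the lists (circles), with filled red circles for genes past the cutoffs, black bars for the median of a list and dotted lines at 2-fold. The cytokines hold the 4 filled circles, CCL20, IL23A, IL24 and IL1B, and the highest median, 0.68.

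The tested neighbours of CSF2 and CSF3 did not pass the cutoffs, against 1.04% of all genes higher and 0.234% lower. With so few neighbours, 0 calls does not set them apart from all genes. CSF2 lies on chromosome 5 beside IL3. Of the 10 nearest protein-coding genes on each side, 18 were on the array and 13 were tested, 0 passed the cutoffs and the median log2 fold change was 0.09. The farthest were CHSY3 at 0.41 and SLC22A4 at 0.40, both with positive values at both times. IL3, IL4, IL5 and IL13 of this cytokine cluster were well above background on no array. IRF1, an interferon response factor that lies 5 genes from CSF2, had values of 0.69 at 48 h and -0.49 at 96 h. It was not picked by the naming rule, and each value sets 1 array against 1. Its mean was 0.10 (limma adjusted p = 0.990), and the difference between the times was not tested. Around CSF3 on chromosome 17, 0 of 16 tested neighbours passed and the median was -0.03, with GSDMB at -0.22 and MIEN1 at -0.14.

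The marker and housekeeping lists held 0 genes past the cutoffs between the shRNAs, against 1.04% of all genes higher and 0.234% lower. The medians were 0.10 for 9 tested leukocyte markers, -0.02 for 8 PC3 and epithelial markers and -0.02 for 10 housekeeping genes. Of the epithelial markers, EPCAM had a value of 0.98 (limma adjusted p = 0.418) and CDH1 of 0.74 (limma adjusted p = 0.887). Blocking the time points gave limma adjusted p-values of 0.0264 and 0.0472. With that block 2.96% of all genes were higher at an adjusted p below 0.05. EPCAM passed the cutoffs without the control array of 48 h (1.21) or the ALKBH3 shRNA array of 96 h (1.19), and after quantile normalization (1.01). Without the ALKBH3 shRNA array of 96 h CDH1 was 1.48 and without that of 48 h it was -0.0077. Between times CDH1 was past the cutoffs, with a log2 change of -1.33 ± 0.38 from 48 h to 96 h (SE, limma adjusted p = 0.209). Of all genes, 0.66% were past the cutoffs and lower at 96 h.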

How the data were processed

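Total RNA of 4 PC3 cultures was measured on Agilent arrays, 1 per culture. The deposited spot intensities had been made by Agilent Feature Extraction (10.7.3.1 in the file headers, array annotation on hg19), which subtracted background, removed spatial trends and set a floor on each array, with no scaling between arrays. The authors also deposited log2 values normalized between arrays with limma, used as an alternative. Between 180 and 379 of 43118 spots, those the software called not uniform or outliers, were left out, and 0 were saturated. The log2 intensity was centred on the 75th percentile (2150 to 2394) and averaged over the spots of a probe. A probe was well above background where at least 0.5 of its spots were, and it was tested where this held on both arrays of a shRNA. Low intensities are imprecise because background and floor make up much of them, and the number of arrays limits all precision.

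Probes were named by accession through RefSeq genes (GRCh38.p14), which gave names to 24910 probes of 19102 genes and left 9217 unnamed. The probe with the highest mean signal stood for a gene. R 4.3.3 and limma 3.58.1 (lmFit, eBayes) compared 2 arrays with 2, called genes at the study's cutoffs (log2 fold change of 1, unadjusted p below 0.05) and adjusted p-values by Benjamini-Hochberg over all 14556 genes. Where only 1 group was above background, the other group was raised to the lowest signal well above background on each array to give a fold. The code was tested on simulated data.

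Time point, shared by the labels and by the slide, pairs the arrays. The change from 48 h to 96 h correlated across genes between control and ALKBH3 shRNA (r = 0.703 over 14556 genes, which are not independent). Named genes were the members, up to 4 genes of each direction past the cutoffs in a list or else the 2 farthest from 0, the 5 nearest profiles and the gene next to CSF2 in order. The members and lists were chosen with earlier results of these data known. Alternatives were normexp background correction (offset 50), 3 other scalings, the authors' values, 2 other filters, the mean over probes or every probe, the replicate block, the methods' t-test, and leaving out each array. Proteins are not analysed here, and some genes that the rule would name are not reported here.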

Additional observations from a re-analysis of the deposited data

How the results depend on the processing

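The mean log2 fold change of CSF2 was 2.31 to 2.60 under the other settings but 1.98 after normexp background correction, and 2.29 to 2.87 when 1 array was left out. The count of other members past the cutoffs and lower was 0 in place of 1 with normexp, the authors' values, a filter on all 4 arrays and the methods' t-test, and 0 to 1 when 1 array was left out. The count at least 2-fold lower was 0 at 48 h and at 96 h with normexp, the authors' values and the filter on all 4 arrays, and 0 at 96 h with the percentile taken over probes measured on all arrays. At a single time point, leaving out an array of the other time point left these counts at 1.

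Time point, or shRNA for the comparison of times, served as a replicate block. For the listed genes, without the marker and housekeeping lists, the count higher with ALKBH3 shRNA was 3, and it was 5 with the block, 5 with no filter, 1 with normexp, the filter on all 4 arrays and the t-test, and 2 to 8 without 1 array. With the block these 5 included CXCL8, named after its value was seen. The count of listed genes lower was 0 by the t-test and 0 to 1 without 1 array. Between times, listed genes higher numbered 3 with no filter, 1 with every probe and 0 to 1 without 1 array, and lower 1 with quantile normalization, no filter and the block, and 1 to 4 without 1 array.

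Over all genes, 151 were higher with ALKBH3 shRNA, against 62 with normexp, 88 in the authors' values, 276 with no filter, 100 with the filter on all arrays, 45 by the t-test and 149 to 381 without 1 array. The 34 lower became 22 with normexp, 56 with no filter, 54 with every probe, 15 by the t-test and 30 to 89 without 1 array. Between times, the 18 higher became 33 with median centring, 339 with no filter, 34 with every probe and 28 to 192 without 1 array. The 96 lower became 44 with normexp, 155 with the block, 42 by the t-test and 106 to 253 without 1 array.

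Signs turned for CSF1 with the mean over probes (0.20). Leaving out 1 array gave ranges that cross 0 for CSF2RB (-0.23 to 0.054), CSF3R (-0.18 to 0.13), FOSB (-0.89 to 0.011) and CDH1 (-0.0077 to 1.48) between shRNAs, and for CSF2 (-1.73 to 1.16), CSF3 (-0.97 to 0.19) and CSF1 (-0.037 to 0.11) between times. The cause was not tested. By the t-test CSF3, CCL20, IL24, IL1B, ESPNL and HSH2D lost the cutoffs. CCL20 (0.59) and IL24 (0.25) lost them with normexp, IL24 also with quantile normalization (unadjusted limma p = 0.0994) and in the authors' values (0.45), and HSH2D without the control array of 96 h (2.07). The block took no call from the members.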
